A study of Homo sapiens with 6 samples.

Results

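The genes described here belong to the sterol regulatory element binding protein (SREBP) pathway and to the synthesis of cholesterol and fatty acids. The list held 38 genes chosen by name, from the SREBP factors and their membrane partners to the enzymes of sterol and fatty acid synthesis. It was chosen with earlier results of these data known. Each gene was read from the probe set that carried its symbol alone and had the highest mean log2 signal over all 6 arrays, and 33 of the 38 genes had such a probe set. All 33 also passed the filter on dim probe sets (signal at or above the median of all probe sets), among 12216 genes that passed of 19775 with a probe set of their own. FADS1, ELOVL1 and CYP51A1 share their probe sets with a second symbol and FDFT1 and ACSL3 had no probe set under their own symbol in the annotation used, so these 5 genes were not analysed here.

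SREBPs are transcription factors made as precursors in the membrane of the endoplasmic reticulum. When sterols are scarce, the escort protein SCAP carries them to the Golgi, where proteases release the active part. When sterols are plentiful, the INSIG proteins hold SCAP and the precursor back. SREBF2 encodes the form that mainly serves cholesterol synthesis and uptake, and SREBF1 the forms that mainly serve fatty acid synthesis. Several of their target genes, INSIG1 among them, encode parts of the same feedback loop.

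The cells were OVCA432, an established line from human high grade serous ovarian cancer, and their RNA was read on Affymetrix U133 Plus 2.0 arrays. The cells went without serum for 24 h and were then given 200 ng/mL of recombinant human MFAP5 (microfibrillar associated protein 5, which cells secrete into the microfibrils of the matrix), or solvent alone. Both groups stayed in serum-free medium until harvest at 48 h, so every sample lacked the lipoproteins that serum brings. Each group had 3 independently prepared samples and 1 array per sample, and 1 cell line is the whole model. A value below is a MAS5 signal, a linear intensity in arbitrary units that can be compared between arrays for 1 probe set but not between probe sets. Means are given ± SD with n = 3 per group, and log2 differences (MFAP5 minus control) ± SE. A gene is said to rise or fall where limma gave an adjusted p below 0.05 over all 27307 probe sets tested.

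Between 27209 and 36073 probe sets per array exceeded the 27 control probe sets for Bacillus RNA, the brightest of which read 26.4 to 55.9 depending on the array. The 3' to 5' log2 ratio differed between groups by 0.03 for GAPDH (exact permutation p = 0.5, two-sided) and by -0.01 for ACTB (p = 0.6), where 3 against 3 cannot go below 0.1. The median signal of an array was higher in the MFAP5 group (60.2 to 61.4) than in controls (53.6 to 56.3), and its part in the results was not tested beyond the centring described further on. All 8 epithelial and ovarian carcinoma markers were above the Bacillus controls on every array, with summed signals of 83769 to 94000 in controls and 93633 to 100951 with MFAP5. Of these 8, MUC16 rose 3.63-fold (adjusted p = 6.44e-07), PAX8 1.45-fold (0.000443) and EPCAM 1.24-fold (0.0489), WT1 fell by 0.41 in log2 (0.00259) and 4 were not called, and their part in the results was not tested. Of the markers of other cell types, 2 of 5 for fibroblasts, 0 of 3 for leukocytes and 0 of 3 for adipocytes and hepatocytes were above those controls on all arrays. Summed signals were 257 to 285 in controls against 255 to 368 with MFAP5 for fibroblasts, 22.2 to 128 against 70.8 to 135 for leukocytes, and 37.7 to 53.0 against 35.1 to 50.3 for adipocytes and hepatocytes. ADIPOQ and PLIN1 were at or below the Bacillus controls on every array. Of 3 endothelial markers, 0 in controls and 2 with MFAP5 were above on all arrays of the group (summed 125 to 197 and 172 to 224), and their part in the results was not tested.

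Of the 33 genes, 18 rose with MFAP5, 0 fell and 15 were not called. The share that rose was 54.5%, against 14.6% of all 12216 genes tested the same way, and the share that fell was 0% against 15.3%. As the list was chosen with earlier results known, these shares are a description and were not tested. At an unadjusted p below 0.05 in limma, 22 were higher and 2, PMVK and ACLY, were lower. Of all 12216 genes tested, 2515 were higher and 2666 lower at that threshold. The median log2 difference was 0.29, against -0.01 over all genes tested. For 22 of the 33 genes (66.7%) the 3 MFAP5 values were separate from the 3 controls, 20 with MFAP5 above and 2 with it below, where 45.9% of all genes tested showed no overlap. The changes were small: called genes rose 1.16-fold to 1.78-fold, and 5 rose more than 1.5-fold. Of all 12216 genes tested, 1020 were more than 1.5-fold higher, called or not. In a bulk culture, a change in RNA per cell and a change in the mix of cells cannot be told apart. Without MFAP5 replicate 2 the number that rose was 11. Centring each array on its median signal left 10 higher and made 3 lower, and centring on the hybridisation controls left 9 higher and 0 lower.

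**Figure D1:**
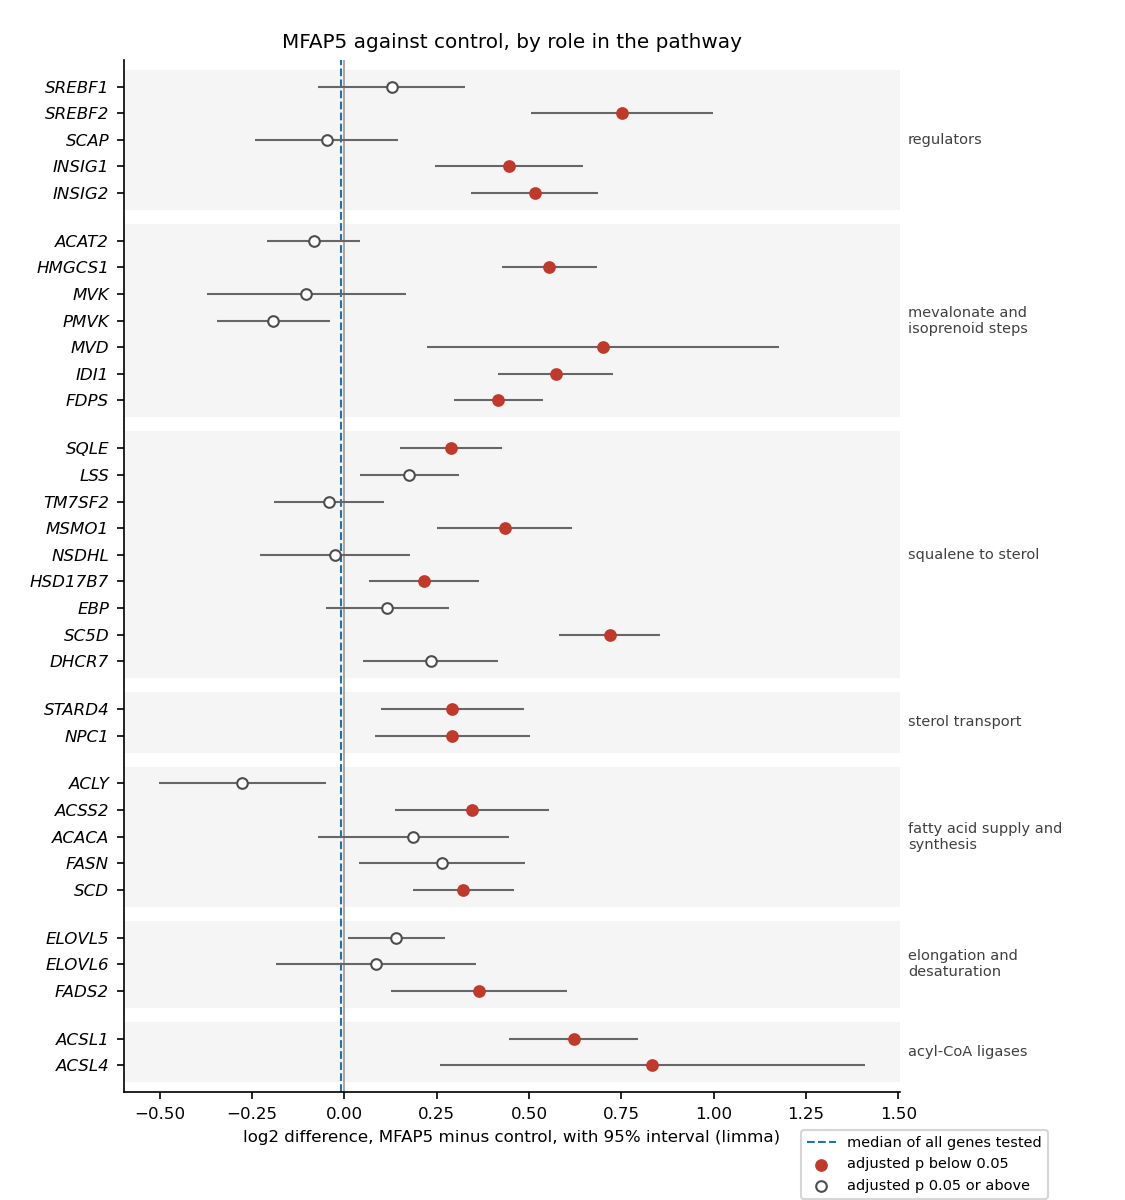
Log2 difference (MFAP5 minus control) of each of the 33 genes on the x axis, with its 95% interval from limma, grouped by role on the y axis. Filled points have an adjusted p below 0.05, and all 18 of them lie to the right of the dashed line at the median of all genes tested, -0.01.

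To show the DNA in front of genes that rose together, the 150 bases upstream of an annotated start are printed for SREBF2, the regulator with the largest difference, and for SC5D, HMGCS1 and IDI1, the sterol enzymes with the smallest adjusted p-values (RefSeq, GRCh38.p14, written 5′ to 3′ on the gene's strand). Where several starts are listed, the most upstream was used (2 are listed for SC5D, 2 for HMGCS1 and 3 for IDI1). Capitals mark the sterol element TCACNCCAC, the CCAAT box CCAAT and the GC box GGGCGG, searched on both strands, so that ATTGG and CCGCCC are the boxes read on the opposite strand. SREBF2 lies at chr22:41832955-41833104 (plus strand), SC5D at chr11:121292621-121292770 (plus), HMGCS1 at chr5:43313413-43313562 (minus) and IDI1 at chr10:1056705-1056854 (minus).
SREBF2: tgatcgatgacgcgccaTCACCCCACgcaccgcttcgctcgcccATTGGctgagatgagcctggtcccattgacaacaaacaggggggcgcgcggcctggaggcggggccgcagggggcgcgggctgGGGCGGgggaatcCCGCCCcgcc
SC5D: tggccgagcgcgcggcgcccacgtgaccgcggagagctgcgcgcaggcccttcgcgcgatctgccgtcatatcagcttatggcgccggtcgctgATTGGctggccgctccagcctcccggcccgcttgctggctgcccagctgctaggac
HMGCS1: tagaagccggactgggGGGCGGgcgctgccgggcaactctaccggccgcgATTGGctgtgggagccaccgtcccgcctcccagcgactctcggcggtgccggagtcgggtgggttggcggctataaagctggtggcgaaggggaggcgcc
IDI1: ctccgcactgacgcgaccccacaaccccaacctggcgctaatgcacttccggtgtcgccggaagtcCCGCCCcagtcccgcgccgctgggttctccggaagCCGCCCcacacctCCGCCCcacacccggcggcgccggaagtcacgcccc

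The stretch before SREBF2 held 1 sterol element, 133 bases before the start, 1 CCAAT box 106 bases before it and 2 GC boxes. The stretch before SC5D held 1 CCAAT box, that before HMGCS1 held 1 CCAAT box and 1 GC box, and that before IDI1 held 3 GC boxes. The longer windows at the other listed starts of IDI1, not printed, held 2 and 3 CCAAT boxes. Windows of 300 bases (250 before and 50 after the start) were found for 30 of the 33 genes, 45 windows in all because several genes have more than 1 annotated start. TCACNCCAC was present in 2 of these 45 windows (4.44%), belonging to SREBF2 and to 1 of the 5 annotated starts of ACSL1, and in 1.13% of all 35116 windows. CCAAT was present in 27 (60%) against 34.6% of all windows, and GGGCGG in 37 (82.2%) against 45.0%. Neither box was particular to the genes that rose. CCAAT was in 16 of the 28 windows of genes that rose and in 11 of the 17 of genes not called. GGGCGG was in 24 and 13 of these. These are matches of letters in a fixed window, and no binding was measured.

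Among the 5 regulators, 3 rose (60%, against 14.6% of all genes tested) and 2 were not called. The gene that rose most was SREBF2. Its signal was 276, 287 and 299.7 on the control arrays and 473, 476 and 503 on the MFAP5 arrays. All 3 treated values were above all 3 controls, with a gap wider than the range of either group. The mean went from 288 ± 11.8 to 484 ± 16.5, a rise of 1.68-fold (log2 0.75 ± 0.11, limma adjusted p = 0.000926). The other probe sets of SREBF2, which are separate probes on the same gene, gave log2 differences of 0.35 and 0.42 and were not called.

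SREBF1, which encodes SREBP-1a and SREBP-1c, read 769, 848 and 795 in controls and 939, 831 and 867 with MFAP5. The groups overlapped, and the log2 difference of 0.13 ± 0.09 did not pass (adjusted p = 0.330, 95% interval -0.07 to 0.33). Its other probe set gave 0.31 and was not called.

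INSIG1 and INSIG2, the proteins that retain SCAP when sterols are plentiful, both rose. INSIG1 read 1575, 1582 and 1545 in controls, values close to each other, and 1904, 2114 and 2414 with MFAP5, which were more spread but all higher. Its mean went from 1567 ± 19.3 to 2144 ± 256, 1.36-fold (log2 0.45, adjusted p = 0.00534). Of the 2 other INSIG1 probe sets, 1 rose by 0.72 in log2 and 1 gave 0.17 and was not called. Centred on the hybridisation controls, INSIG1 had an adjusted p of 0.0834. INSIG2, which unlike INSIG1 is not a classical SREBP target, read 1094, 1075 and 1019.8 and then 1575, 1553 and 1429.5. Every treated value of INSIG2 was higher than every control, and the mean rose 1.43-fold, from 1063 ± 38.5 to 1519 ± 78.6 (log2 0.51 ± 0.08, adjusted p = 0.00106). SCAP itself read 989, 1089.5 and 1177 in controls and 1069, 1023 and 1049 with MFAP5. The treated values lay inside the control range, with a log2 difference of -0.05 ± 0.09 (adjusted p = 0.726, interval -0.24 to 0.15).

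**Figure D2:**
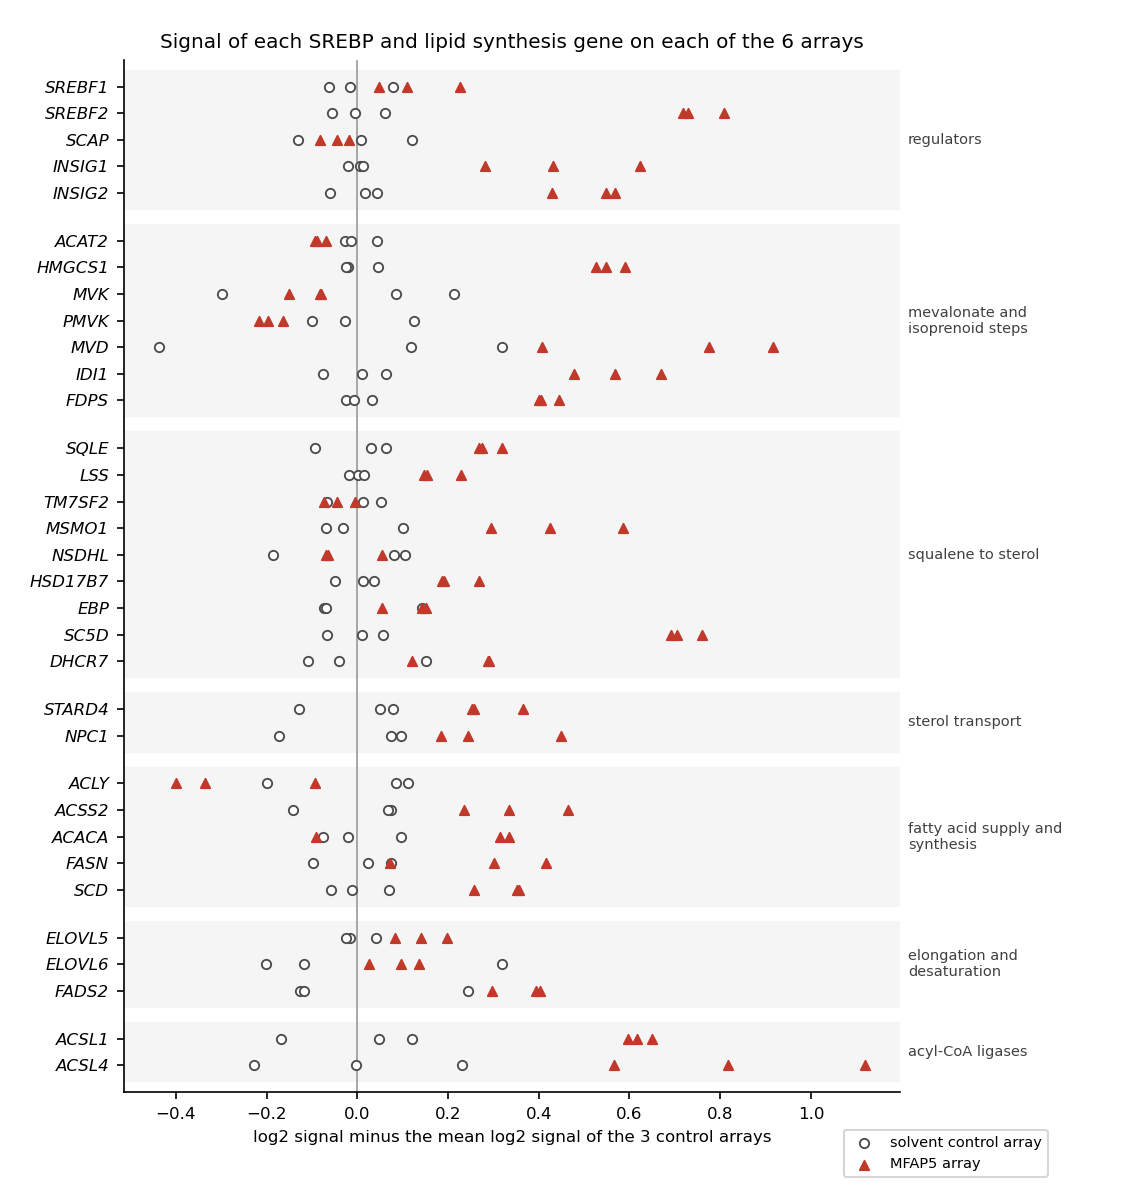
Log2 signal of each gene on each of the 6 arrays, minus the mean log2 signal of its 3 control arrays, by role. Circles are solvent controls and triangles MFAP5; the 3 triangles of SREBF2, INSIG1 and INSIG2 lie to the right of all their circles, while those of SREBF1 and SCAP are mixed with them.

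The mevalonate branch turns acetyl-CoA into the isoprenoid farnesyl diphosphate. Of its 7 measured enzymes, 4 rose (57.1%, against 14.6% of all genes tested). HMGCS1, the cytosolic synthase that makes HMG-CoA, read 4878, 4663 and 4646 in controls and 7115, 6913 and 6811 with MFAP5. The groups were far apart compared with the spread within them. The mean rose 1.47-fold, from 4729 ± 129.6 to 6947 ± 154 (log2 0.55 ± 0.06, adjusted p = 0.000115), and a second HMGCS1 probe set also rose, by 0.58 in log2. MVD, which decarboxylates mevalonate diphosphate, read 233, 203 and 138 and then 353, 319.9 and 248. Its arrays varied widely within both groups, and the lowest treated value was only just above the highest control. MVD rose 1.62-fold (log2 0.70 ± 0.21, adjusted p = 0.0373), a call that did not hold without control replicate 2 or 3 or MFAP5 replicate 1 or 2 (adjusted p 0.0628 to 0.112).

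IDI1, the isomerase that makes dimethylallyl diphosphate, read 4938, 5121 and 4653 in controls and 7791, 7262 and 6827 with MFAP5, with no overlap. It rose 1.49-fold, from 4904 ± 236 to 7293 ± 483 (adjusted p = 0.000299). Its brightest probe set is of the x_at kind, in which some probes can match other transcripts. Of its 3 other probe sets, 1, also of the x_at kind, rose by 0.47 in log2. The other 2 were not called: an x_at probe set read -0.17, and one not of that kind read -0.25. The latter was dim, with mean signals of 80.6 in controls and 70.2 with MFAP5. With the mean of all 4 in place of the brightest, the log2 difference of IDI1 was 0.16 (adjusted p = 0.152). FDPS, the synthase of farnesyl diphosphate, read 14342, 14535 and 14931 and then 19274, 19343 and 19864, each group tight and the groups well separated. FDPS rose 1.33-fold, from 14603 ± 300.2 to 19494 ± 323 (log2 0.42 ± 0.05, adjusted p = 0.000472).

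The other 3 enzymes of the branch had values below 0 and were not called. ACAT2, the thiolase that starts the branch, had a log2 difference of -0.08 (adjusted p = 0.315), and PMVK, which makes mevalonate diphosphate, had -0.19 ± 0.07 (adjusted p = 0.0652). For both of these genes all 3 treated values were below all 3 controls. PMVK passed with quantile normalization (log2 -0.19, adjusted p = 0.0337) and with the filter at the 75% quantile (0.0496). ACAT2, PMVK and ACLY fell when arrays were centred on their medians. MVK, the kinase before PMVK, had -0.10 with overlapping groups (adjusted p = 0.575).

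From squalene to cholesterol, 4 of 9 measured enzymes rose (44.4%, against 14.6% of all genes tested). The smallest adjusted p of all 33 genes was that of SC5D. SC5D, the desaturase of a late step, read 3836, 3957 and 3634 in controls and 6443, 6207 and 6144 with MFAP5. The lowest treated value was far above the highest control. The mean rose 1.65-fold, from 3809 ± 163 to 6265 ± 157 (log2 0.72 ± 0.06, adjusted p = 3.26e-05). MSMO1, which takes part in removing the methyl groups at carbon 4 of the sterol ring, read 6102, 6261 and 6862 and then 7848, 8589 and 9598. The treated arrays were spread but all above the controls, and MSMO1 rose 1.35-fold, from 6409 ± 401 to 8678 ± 879 (adjusted p = 0.00380).

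SQLE, the monooxygenase that commits squalene to sterols, read 11382, 12686 and 12414 in controls and 14640.4, 14705 and 15161 with MFAP5. All treated values were higher, by a modest 1.22-fold (log2 0.29 ± 0.06, adjusted p = 0.00734). Of its 3 other probe sets, 2 also rose (log2 0.35 and 0.48) and 1 was not called (0.24). The SQLE call was lost when arrays were centred on medians (adjusted p = 0.0928) or on hybridisation controls (0.211), or without the intensity trend (0.0562). HSD17B7, a ketoreductase that works with NSDHL, read 1913, 2030.1 and 1996 and then 2259, 2383 and 2253, a rise of 1.16-fold with no overlap (adjusted p = 0.0387). That call did not hold without control replicate 1, 2 or 3 or MFAP5 replicate 1, 2 or 3 (adjusted p 0.0525 to 0.152), and its probe set is also of the x_at kind, with a near-identical pseudogene in the genome, so the signal of HSD17B7 is uncertain.

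The other 5 sterol enzymes were not called. LSS, which closes the rings of lanosterol, had a log2 difference of 0.18 (adjusted p = 0.0578) with all treated values above the controls. LSS passed with quantile normalization (adjusted p = 0.0413) and with the filter at the 75% quantile (0.0317). DHCR7, the reductase of the last step in one branch, had 0.23 with overlapping groups (adjusted p = 0.0631). DHCR7 passed without control replicate 2 or MFAP5 replicate 3 (adjusted p 0.0291 to 0.0492), and its second probe set rose by 0.26. It also passed with quantile normalization (adjusted p = 0.0357), the filter at the 75% quantile (0.0498), the replicate block (0.0183) and the mean of its probe sets (0.0267). EBP, the sterol isomerase, had 0.12 (adjusted p = 0.292), though 1 of its 3 other probe sets rose by 0.36. TM7SF2, a sterol reductase, had -0.04 (0.700), and NSDHL, a dehydrogenase of the demethylation steps, had -0.03 (0.865).

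Both sterol transport genes rose by a similar small step, where 14.6% of all genes tested rose. STARD4, a cytosolic carrier of cholesterol, read 1007, 889.9 and 1027 in controls and 1162, 1159.5 and 1254 with MFAP5. NPC1, which moves cholesterol out of the lysosome, read 3078, 3126 and 2592 and then 3986, 3458 and 3322. In neither gene did the groups overlap, although for NPC1 the highest control was close to the lowest treated value. STARD4 rose 1.22-fold (adjusted p = 0.0333) and NPC1 1.22-fold (adjusted p = 0.0456). The call of STARD4 did not hold without control replicate 1 or 2 or MFAP5 replicate 1, 2 or 3 (adjusted p 0.0513 to 0.122), nor that of NPC1 without control replicate 1, 2 or 3 or MFAP5 replicate 1 or 2 (adjusted p 0.0547 to 0.134). A second NPC1 probe set rose by 0.65 in log2.

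Fatty acid synthesis begins with cytosolic acetyl-CoA, and here 2 of 5 genes rose (40%, against 14.6% of all genes tested). ACSS2, which makes acetyl-CoA from acetate, read 1141, 1136 and 982 in controls and 1366, 1496 and 1275 with MFAP5. The groups were separate, and ACSS2 rose 1.27-fold, from 1086 ± 90.3 to 1379 ± 111 (adjusted p = 0.0227), though not without control replicate 3 or MFAP5 replicate 2 (adjusted p 0.0598 to 0.102). SCD, the desaturase that makes oleate, read 21379, 23378 and 22094 and then 26622, 28412 and 28509.7. All treated values were higher, the mean rose 1.25-fold (log2 0.32 ± 0.06, adjusted p = 0.00395), and 2 of its 3 other probe sets rose too (log2 0.26 and 0.47). Centred on the hybridisation controls, SCD had an adjusted p of 0.10.

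FASN, the synthase that builds palmitate, read 1109, 1072 and 984 in controls and 1406, 1299 and 1108 with MFAP5. The third treated value lay among the controls, and the log2 difference of 0.26 ± 0.10 did not pass (adjusted p = 0.0836, interval 0.04 to 0.49). FASN did pass without MFAP5 replicate 3 (adjusted p 0.0298) and with the replicate block (0.0272). ACLY, which makes acetyl-CoA from citrate, had -0.28 ± 0.10, the lowest of the 33 genes, with overlapping groups (adjusted p = 0.0731), and passed without control replicate 1 or MFAP5 replicate 1 (adjusted p 0.0255 to 0.0261). ACACA, the carboxylase that makes malonyl-CoA, had 0.19 (adjusted p = 0.275), and passed without MFAP5 replicate 3 (adjusted p 0.0353). The mean of both ACACA probe sets gave -0.04.

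Of the enzymes that lengthen or desaturate chains, 1 of 3 rose (33.3%, against 14.6% of all genes tested). FADS2, a front-end desaturase of polyunsaturated fatty acids, read 1241, 960.0 and 966 in controls and 1386, 1376 and 1287 with MFAP5. The first control stood above the other two and close to the treated arrays, and FADS2 rose 1.29-fold (adjusted p = 0.0312), a call that did not hold without control replicate 2 or 3 or MFAP5 replicate 1, 2 or 3 (adjusted p 0.0504 to 0.109). ELOVL5, an elongase of polyunsaturated chains, had a log2 difference of 0.14 (adjusted p = 0.109) with no overlap. Its other tested probe set gave -0.17, with all treated values below the controls, and was not called (adjusted p = 0.203). ELOVL6, which extends palmitate, had 0.09 (adjusted p = 0.651) on its brightest probe set, while another of its probe sets rose by 0.79. ELOVL6 passed without control replicate 3 (adjusted p 0.0451) and with the mean of its probe sets (0.0334).

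Of the long-chain acyl-CoA ligases, which activate fatty acids for use, ACSL1 and ACSL4 rose, ACSL3 was not analysed and ACSL5 was below the filter. ACSL1 read 4273, 4491 and 3677 in controls and 6487, 6333 and 6247 with MFAP5. The treated values were close together and far above the controls, 1.54-fold in the mean (log2 0.62 ± 0.08, adjusted p = 0.000372), and a second ACSL1 probe set rose by 0.56. ACSL4, which prefers arachidonate, was dim, with 54.1, 46.3 and 63.7 in controls and 80.3, 95.6 and 118 with MFAP5, and 1 control value was at or below the brightest Bacillus control of its array. All treated values were higher. ACSL4 rose 1.78-fold (log2 0.83 ± 0.26, adjusted p = 0.0388), with the widest error of the 33 genes, and the call did not hold without control replicate 1 or 2 or MFAP5 replicate 2 or 3 (adjusted p 0.0854 to 0.136). With 50 added to each signal, its log2 difference was 0.49.

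Across the roles, 8 of 16 sterol enzymes rose (median log2 0.22) and 5 of 10 fatty acid enzymes rose (median 0.29). Of all genes tested, 14.6% rose and 15.3% fell, with a median of -0.01. Whether the sterol and fatty acid branches differ was not tested. A gene read by several probe sets gives a further look at the same samples: 20 of the 33 genes had another probe set past the filter, 35 in all. Of these, 12 rose, 1 fell and 22 were not called, against 13.5% higher and 11.8% lower of all 27307 probe sets. The one that fell belonged to NSDHL (log2 -0.29, adjusted p = 0.0460). Of the 9 genes that rose and had another probe set, 7 had at least 1 other that rose, the exceptions being SREBF2 and FADS2, and 0 had one that fell.

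**Figure D3:**
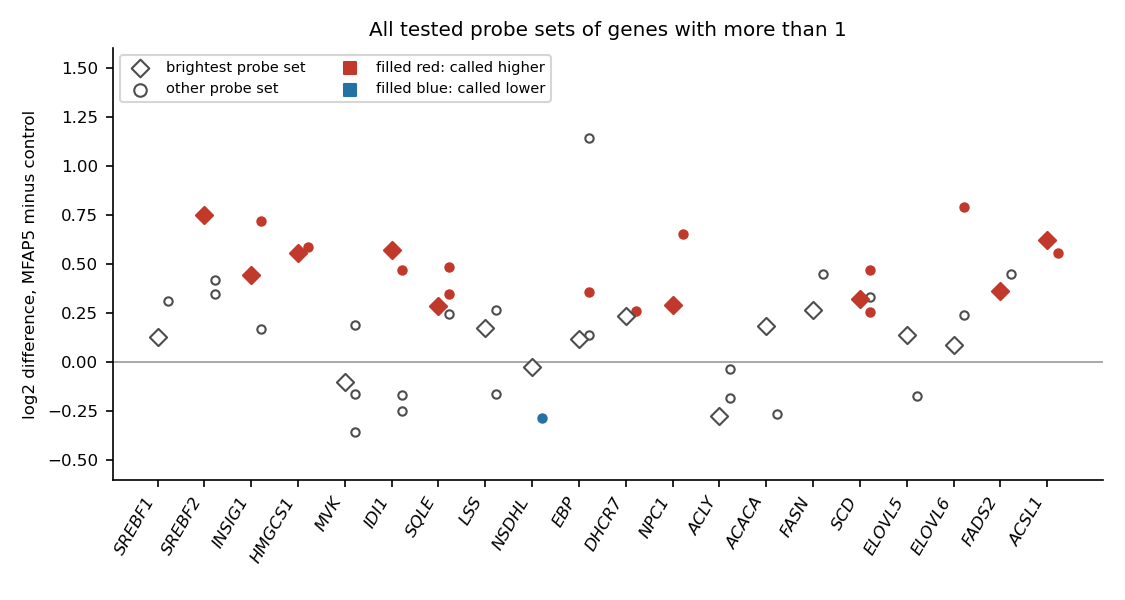
Log2 difference (MFAP5 minus control) on the y axis for every tested probe set of the 20 genes with more than 1; diamonds are the brightest probe set and circles the others, red where higher and blue where lower at an adjusted p below 0.05. The single blue circle is the second probe set of NSDHL at -0.29, and IDI1 has 2 open circles below 0.

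The genes around the pathway were read from 5 further lists, also chosen with earlier results known, of which 42 genes were tested, and 9 rose and 6 fell. The shares were 21.4% higher and 14.3% lower, against 14.6% and 15.3% of all genes tested, near the background. Among sterol sensing and late sterol partners, 1 of 9 rose and 1 fell. GGPS1, which makes geranylgeranyl diphosphate from the product of FDPS, rose 1.27-fold (adjusted p = 0.00646). MBTPS2, the protease that makes the second cleavage of SREBP, fell by 0.27 in log2 (adjusted p = 0.0408), a call that did not hold without control replicate 2 or 3 or MFAP5 replicate 2 or 3 (adjusted p 0.0834 to 0.149). In sterol export and storage 2 of 8 rose, NPC2, the lysosomal partner of NPC1 (1.37-fold, adjusted p = 0.00155), and SOAT1, which esterifies cholesterol (1.45-fold, adjusted p = 0.00190), and 1 fell. The mean of all SOAT1 probe sets gave a log2 difference of -0.02. LIPA, the lysosomal acid lipase, was the one that fell, by 0.33 in log2 (adjusted p = 0.00750). Centred on hybridisation controls, the calls of GGPS1 (adjusted p = 0.180) and LIPA (0.0810) were lost.

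Among partners of fatty acid chain synthesis 4 of 8 rose and 0 fell (1 lower at an unadjusted p below 0.05, limma). Of all 12216 genes tested, 14.6% rose and 15.3% fell. SCD5, a second oleate desaturase, rose 1.53-fold (adjusted p = 0.000447), and ELOVL7, an elongase, 1.27-fold (0.00441). HSD17B12 (1.36-fold, 0.000326) and HACD3 (1.27-fold, 0.00166), which take part in the elongation cycle, also rose. The mean of all HSD17B12 probe sets was not called (adjusted p = 0.519). The call of ELOVL7 was lost when arrays were centred on medians (adjusted p = 0.0560) or on hybridisation controls (0.212), and that of HACD3 on the latter (0.0845). In glycerolipid synthesis and lipid droplets 2 of 9 rose and 1 fell, shares of 22.2% and 11.1%, near those of all genes tested. The phosphatidate phosphatases LPIN1 and LPIN2 rose 1.28-fold (adjusted p = 0.00509) and 1.48-fold (adjusted p = 0.00871). GPAM, the acyltransferase of the first step, fell by 0.48 (adjusted p = 0.00574). Centred on hybridisation controls, the calls of LPIN1 (adjusted p = 0.173) and LPIN2 (0.0618) were lost.

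In fatty acid oxidation 0 of 8 rose and 3 fell, with 0 higher and 6 lower at an unadjusted p below 0.05 in limma, and the median log2 difference was -0.22. Of all 12216 genes tested, 15.3% fell, and 2515 were higher and 2666 lower at the unadjusted threshold. HADHB, a subunit of the mitochondrial trifunctional protein, read 8893, 8594 and 7812 in controls and 6091, 5402 and 6226 with MFAP5, lower on every treated array. It fell by 0.51 in log2 (adjusted p = 0.000950). CPT1A, which hands acyl chains to the mitochondrion, read 2189, 2263 and 2237 and then 1635, 1742 and 1733, with no overlap. CPT1A fell by 0.39 (adjusted p = 0.00224), and ECI2, an isomerase of unsaturated chains, by 0.39 (adjusted p = 0.0206), the latter not without control replicate 1 or 2 or MFAP5 replicate 2 or 3 (adjusted p 0.0609 to 0.0846).

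**Figure D4:**
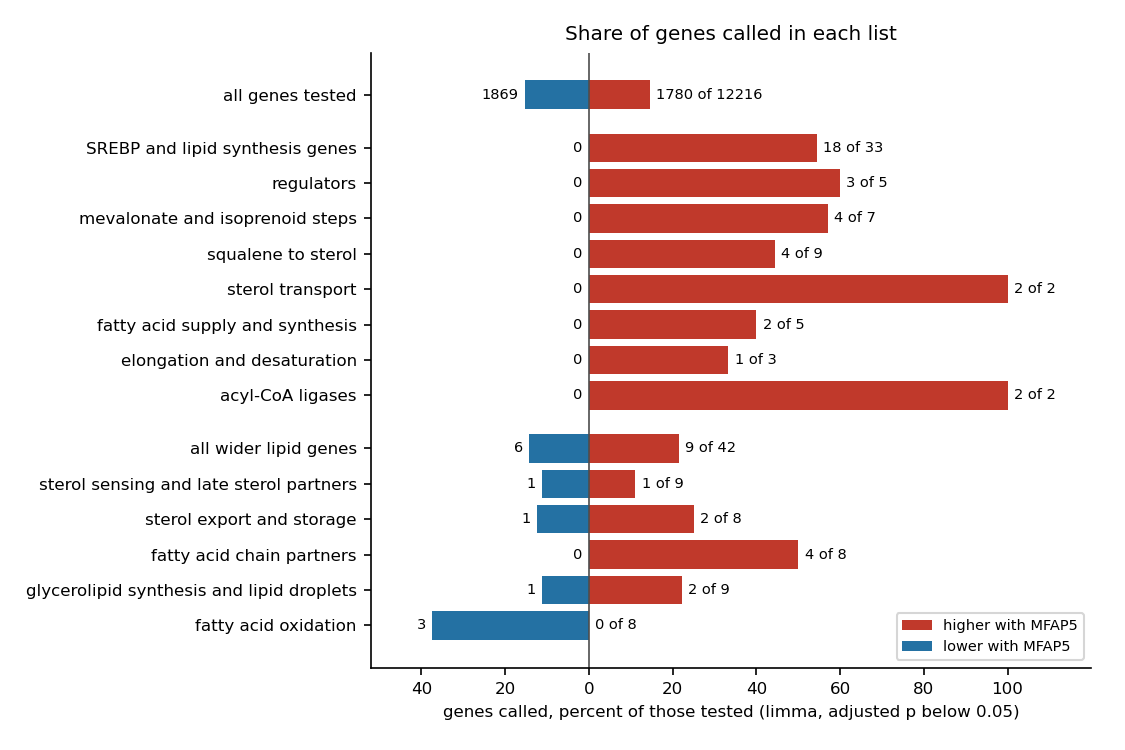
Share of tested genes called in each list, in percent of those tested, higher with MFAP5 to the right and lower to the left, with the counts written beside the bars. The bar of all 33 SREBP and lipid synthesis genes reaches 54.5% to the right and 0% to the left, and that of fatty acid oxidation 37.5% to the left.

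Of the 18 genes that rose, 7 kept their call in every other analysis in which they were tested: SREBF2, INSIG2, HMGCS1, FDPS, MSMO1, SC5D and ACSL1. SREBF2 was too dim to enter the one with the stricter filter. INSIG1, IDI1 and SCD each lost the call in 1 analysis, SQLE in 3, ACSS2 in 5, STARD4 and NPC1 each in 9, and HSD17B7 and FADS2 each in 10 of 15. MVD and ACSL4, also too dim for the stricter filter, each lost it in 8 of 14. Besides the arrays left out one at a time, calls were lost on median centring (MVD, SQLE, HSD17B7, STARD4, NPC1, ACSS2, FADS2 and ACSL4, adjusted p 0.0642 to 0.435) and on centring by hybridisation controls (INSIG1, SQLE, HSD17B7, STARD4, NPC1, ACSS2, SCD, FADS2 and ACSL4, 0.0834 to 0.545). They were also lost with no filter (MVD, HSD17B7, STARD4, NPC1, FADS2 and ACSL4, 0.0540 to 0.0983) and without the intensity trend (MVD, SQLE, HSD17B7, STARD4, NPC1, ACSS2 and FADS2, 0.0562 to 0.135). Quantile normalization ended the calls of MVD (0.0652) and ACSL4 (0.0788), and the mean of a gene's probe sets those of IDI1 (0.152) and FADS2 (0.113).

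**Figure D5:**
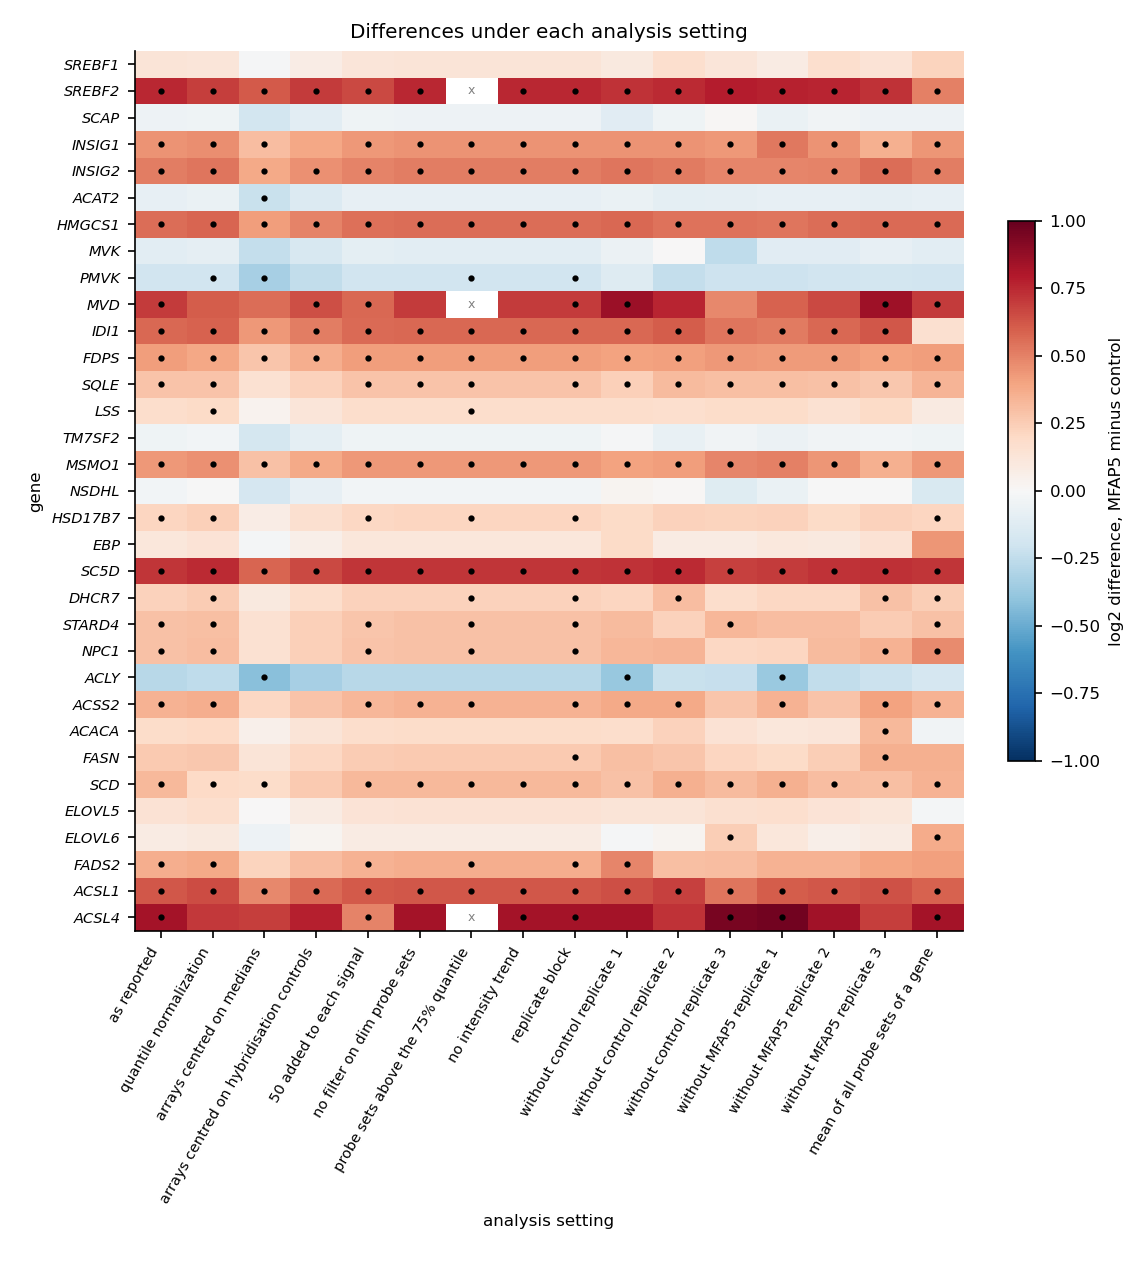
Log2 difference of each of the 33 genes (y axis) as reported and in each of the 15 other analyses (x axis), as colour from blue (lower with MFAP5) to red (higher); a dot marks an adjusted p below 0.05 and x a gene not tested. SC5D, HMGCS1, FDPS, MSMO1, INSIG2 and ACSL1 carry a dot in every column, and SREBF2 in every column but the one where it was not tested.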

How the data were processed

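Per the labels' protocols, biotinylated cRNA was made from 100 ng of total RNA and each sample was put on its own array. The authors deposited 1 linear intensity per probe set and array, MAS5 signals per the submitters' processing notes (version not given). The trimmed mean (2% off each end) was 500.07 on every array, so the values were already scaled and only log2 was taken. Such scaling hides a change shared by most transcripts. The platform annotation gave 41091 probe sets 1 symbol, 1801 several and 11721 none listed, and 41037 of those with 1 symbol were found in RefSeq (GRCh38.p14) by Entrez identifier.

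The 62 control probe sets and those with a mean log2 value below the median (a signal of 53.7) were left out, leaving 27307. Groups were taken from the sample titles, and limma 3.58.1 under R 4.3.3 tested their difference (eBayes with an intensity trend, two-sided, Benjamini-Hochberg over all probe sets tested, adjusted p below 0.05), with 4 residual and 6.15 prior degrees of freedom. Samples are labelled as independently prepared, and p-values measure the spread between them. The number of arrays limits the precision. The fit was tested on simulated data, and the outcome is not reported here.

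Values per array are given for called regulators, for the 4 called genes with the smallest p in each other role, and always for SREBF1, SREBF2, SCAP, INSIG1, INSIG2, HMGCS1, SQLE, FASN and SCD; in the further lists, up to 4 called genes are named. The genes and lists were chosen with earlier results of these data known. Alternatives covered scaling, an offset of 50, the filter, the trend, the replicate block, 1 array left out at a time, and the mean of a gene's probe sets. In the further lists, ACSL5 was below the filter, and some listed genes are not reported here. Array values carry no genome build, so coordinates are given only for RefSeq promoters.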

Additional observations from a re-analysis of the deposited data

How the results depend on the processing

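Against 18 higher and 0 lower of the 33 genes, 9 and 6 of the 42 genes of the further lists, and 3679 and 3209 probe sets of the whole array, centring arrays on their medians, which shifted the median of all probe sets tested by -0.14 in log2, gave 10 and 3 (ACAT2, PMVK and ACLY), 8 and 12, and 2302 and 5975. Centring on hybridisation controls gave 9 and 0, 4 and 4, and 1920 and 2011. Quantile normalization made 1 of the 33 lower, as did the filter at the 75% quantile, which left 2422 probe sets of the array higher. Without the intensity trend 11 of the 33 rose, and 3047 probe sets of the array were higher and 2200 lower. With no filter 12 of the 33 rose, and 3087 probe sets of the array were higher and 2522 lower. The cause of these differences was not tested. Leaving out 1 array gave 11 to 17 higher and 0 to 1 lower of the 33, 9 to 10 and 4 to 7 in the further lists, and 2518 to 3561 and 2114 to 3114 on the array. With 50 added to each signal, 18 of the 33 rose and 0 fell.

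The deviations of same-numbered arrays from their group means correlated at 0.09, -0.01 and 0.17, and those of differently numbered arrays at -0.18 to 0.10. Whether the replicate numbers pair the samples was not tested. With the replicate block, 20 of the 33 rose and 1, PMVK, fell, 12 and 10 of the further lists did, and 4214 and 3774 probe sets of the array.

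Only values that were not called changed sign, with 1 exception. On median centring SREBF1 went to -0.011, EBP to -0.022 and ELOVL6 to -0.053. With the mean of a gene's probe sets ACACA went to -0.038, ELOVL5 to -0.016 and SOAT1, the exception, to -0.022. With 1 array left out, log2 differences ran from -0.12 to 0.026 for NSDHL, -0.015 to 0.25 for ELOVL6, -0.25 to 0.0035 for MVK and -0.11 to 0.012 for SCAP. Precision was lowest for ACSL4 and MVD, with SE of 0.26 and 0.21 in log2.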
